A study of Flaveria robusta and Flaveria ramosissima and Flaveria trinervia with 18 samples.

Results

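Transcript abundance was compared under high light between leaves of Flaveria trinervia, a species with C4 photosynthesis, and Flaveria robusta, a species with C3 photosynthesis. The comparison covered every gene whose mean over the 3 high-light libraries of F. trinervia and the 3 of F. robusta was at least 1 TPM, and 16071 of 30040 genes met this limit. TPM is a gene's transcript abundance corrected for its length and expressed relative to the total of its library. The limit used the mean over both species together, so a gene could meet it through its level in 1 species alone, and such genes are counted apart below.

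RNA was taken from newly expanded mature leaves of 3 Flaveria species, each at a high light of 1400 µmol m−2 s−1 and at a control light of 500 µmol m−2 s−1, in 3 replicate libraries a group and 18 libraries in all. The 6 libraries compared here were F. trinervia at 1400 and F. robusta at 1400. The control-light libraries of the same species, and the high-light libraries of F. ramosissima, a species intermediate between the C3 and C4 types, were set beside them. The growth description also names a chamber light of 200 µmol m−2 s−1, and the sources used here do not give the length of the exposure. Plants of both species in the comparison received the high light, so a difference between them is a species difference under that light and not a response to it. Each photosynthetic type was represented by a single species, and a difference due to the pathway cannot be told apart from any other difference between F. trinervia and F. robusta. The labels do not say whether replicates were separate plants, and the p-values hold for the spread among these samples alone, part or all of which may be technical.

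In C3 leaves, Rubisco fixes CO2 directly in the mesophyll, and its side reaction with oxygen leads to photorespiration. In C4 leaves, CO2 is first bound in the mesophyll by PEP carboxylase, carried as a C4 acid to the bundle sheath and released there around Rubisco, which needs high levels of the cycle's enzymes and of the transporters between both cell types. Flaveria holds close relatives of both kinds and intermediates, in which photorespiratory CO2 is recaptured in the bundle sheath. The files name genes only by a number and do not pair these numbers with gene names, so no gene below is assigned to the C4 cycle or to photorespiration, and the leaf could not be checked by its marker genes. Neither the reference that was quantified nor the way a row was matched from one species to another is given in the sources used here. In whole leaves, fewer cells of a type and less RNA per cell cannot be told apart.

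The spread of TPM over genes was described by 6 values per library. Shares of TPM, here and below, are of the total over the 30040 genes, which was 903641 to 929124 TPM in the 6 libraries compared. In F. trinervia, 14011 ± 170 genes (SD, n = 3) of the table reached 1 TPM, against 14664 ± 699 in F. robusta (SD, n = 3; exact permutation test over libraries, two-sided, p = 0.3). Genes above 1000 TPM held 53.2 ± 1.88% of all TPM in F. trinervia and 50.1 ± 8.24% in F. robusta (exact permutation p = 0.6), and genes of 100 to 1000 TPM held 26.1 ± 1.81% in F. trinervia and 26.4 ± 4.43% in F. robusta (exact permutation p = 0.8). Genes of 10 to 100 TPM held 17.0 ± 0.0449% in F. trinervia, against 19.8 ± 3.96% in F. robusta (exact permutation p = 0.4). Those of 1 to 10 TPM held 3.53% in both (exact permutation p = 1). The 10 most abundant genes of each library took 21.0 ± 0.138% of TPM in F. trinervia and 24.8 ± 5.31% in F. robusta (exact permutation p = 0.4). None of these 6 library values was called, with adjusted p-values of 0.8 to 1 by this test. With 3 libraries against 3 the smallest p it can give is 0.1. No value could therefore be called, and the lack of a call does not show that the species were alike. Replicate 2 of F. robusta, described next, decided the size of several of these differences. Without it, F. trinervia minus F. robusta was 7.85 percentage points instead of 3.17 for genes above 1000 TPM, −4.99 instead of −2.84 for genes of 10 to 100 TPM and −1034 instead of −652 for the number of genes at 1 TPM, each with an exact permutation p of 0.1, the smallest that the remaining libraries allow. For genes of 100 to 1000 TPM it was −2.91 instead of −0.35 (exact permutation p = 0.2), and for the 10 most abundant genes −0.69 instead of −3.72 (exact permutation p = 0.5).

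The libraries of F. robusta were less alike than those of F. trinervia, and 1 of them stood apart. Over 10360 genes with at least 5 TPM, the median SD between replicates was 0.16 on the log2 scale in F. trinervia and 0.42 in F. robusta. In the F. robusta library of replicate 2, 43 genes held 50% of all TPM, against 173 and 129 genes in replicates 1 and 3, and the 10360 genes lay at a median of −0.55 on the log2 scale relative to the mean of the other replicates. This deviation was −0.44 for genes of 1 to 10 TPM, −0.59 for 10 to 100 TPM, −0.27 for 100 to 1000 TPM and 0.33 for genes above 1000 TPM. In F. trinervia, 87, 104 and 87 genes held 50% of TPM. The labels give no batch or date for these libraries, and the counts that changed most without replicate 2 of F. robusta are also given without it.

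Which genes were abundant differed much more between the species than between replicates. The difference between 2 libraries was taken as the percent of TPM that would have to move between genes to make them alike. Genes present in both libraries at different levels add to it. Between a library of F. trinervia and one of F. robusta it was 44.7 to 47.0%. It was 3.34 to 10.5% between 2 libraries of F. trinervia and 8.94 to 24.0% between 2 of F. robusta. Over the 16071 genes, the correlation of log2(TPM + 1) was 0.49 to 0.55 between libraries of different species. It was 0.98 to 1.00 within F. trinervia and 0.91 to 0.98 within F. robusta. The 16071 genes include those that met the limit through 1 species alone and had to differ between the species. These correlations are across genes, which are not independent replicates. Of the 10 most abundant genes of each species, 5 were shared, and 51 of the 100 most abundant and 607 of the 1000 most abundant. Among the 100 most abundant genes of F. trinervia, 16 lay beyond rank 1000 in F. robusta, and among the 100 of F. robusta, 20 lay beyond rank 1000 in F. trinervia.

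Transcript abundance differed between the species for a large share of genes. On log2(TPM + 1), limma called 9132 of the 16071 genes (56.8%) at a Benjamini-Hochberg adjusted p under 0.05, and 7291 to 11308 when 1 library was left out. Among the genes that reached 1 TPM in both species the share called was 43.9%. Transcript abundance was higher in F. trinervia for 4182 genes (26%) and lower for 4950 (30.8%). The median log2 difference, F. trinervia minus F. robusta, was 1.69 among the genes called higher and −1.92 among those called lower, beside a median size of 0.97 over all genes tested. A difference of at least 2-fold was found for 3283 of the higher and 4237 of the lower genes, of at least 4-fold for 1635 and 2355, and of at least 8-fold for 775 and 1253. Among genes with at least 1 TPM in both species, 479 higher and 735 lower ones reached 4-fold, and 166 and 305 reached 8-fold. The other genes met the limit through 1 species alone and had to differ, which also enters the medians of the called genes. Differences under 2-fold made up 17.7% of the calls. On this scale, fold changes of genes of low abundance are understated.

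**Figure D1:**
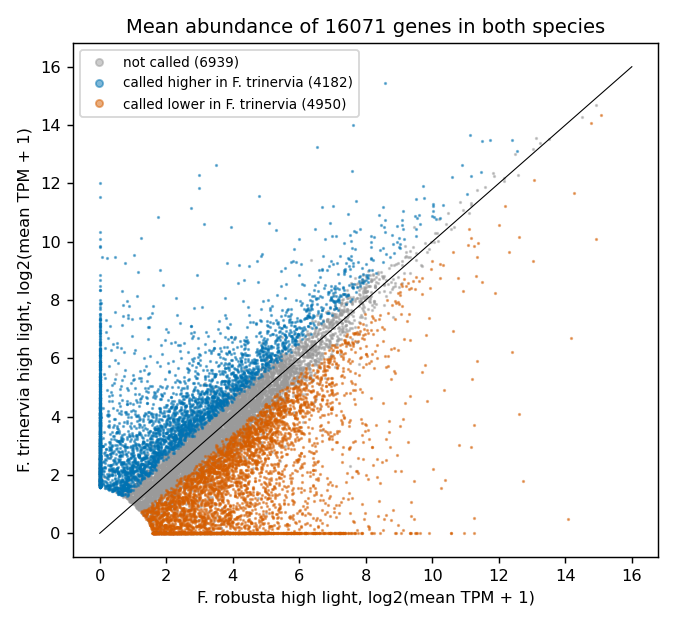
Mean abundance of 16071 genes under high light, as log2(mean TPM + 1), in F. trinervia (vertical axis) against F. robusta (horizontal axis), with 1 point per gene and the line of equal abundance. The 4182 genes called higher in F. trinervia lie above the line, the 4950 called lower lie below it, and the points along each axis are genes listed at 0 in the other species.

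In 10475 genes (65.2%) the 3 libraries of F. trinervia did not overlap with the 3 of F. robusta, with 4964 higher (30.9%) and 5511 lower (34.3%). Of the genes called, 9099 had groups that did not overlap and in 33 the groups overlapped. A further 1376 genes had groups that did not overlap and were not called.

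The balance between higher and lower genes depended on how libraries were scaled, and most single calls did not. The median log2 difference over all genes was −0.11 (exact permutation test over libraries, two-sided, p = 0.7). The smallest p this test can give here is 0.1. The median was −0.02 after median-ratio scaling and 0.11 after quantile normalization (exact permutation p = 0.1 each). It was 0.03 without replicate 1 of F. robusta (exact permutation p = 0.7) and −0.30 without its replicate 2 (exact permutation p = 0.1). Genes called higher were 45.8% of all calls, against 49.0% after median-ratio scaling, 54.6% after quantile normalization and 38.6% without replicate 2 of F. robusta. So no excess of lower over higher genes is reported. In 9 fits, namely the TPM as deposited, both scalings and the 6 fits that each left out 1 library, 6843 genes (42.6%) were called in the same direction every time, which was 74.9% of the calls made on the deposited TPM. Of these, 3239 (20.2%) were higher and 3604 (22.4%) were lower in F. trinervia, with median log2 differences of 2.00 and −2.34, and 0 genes were called in both directions over the 9 fits.

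Differences were found both among genes detected in both species and among genes of a single species. In both species, 11588 genes (72.1%) reached a mean of 1 TPM, and 43.9% of these were called, 2438 higher and 2648 lower in F. trinervia, with a median size of 0.67 on the log2 scale. A further 1859 genes (11.6%) reached 1 TPM only in F. trinervia and 2624 (16.3%) only in F. robusta. Of these, 93.8% and 87.7% were called, but such genes passed the limit through 1 species alone and had to differ, so their counts are no result in themselves. In the 9 fits, 1572 of the genes called higher every time and 1626 of those called lower every time had at least 1 TPM in both species.

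The genes listed at 0 in all libraries of a species were the extreme of this pattern. In F. robusta 1171 genes (7.29%) were listed at 0 in the 3 high-light libraries, with a median of 6.03 TPM in F. trinervia, where 384 reached 10 TPM, 43 reached 100 TPM and 4 reached 1000 TPM. The most abundant of them had 3867, 4338 and 4173 TPM in F. trinervia. It had 3203, 4124 and 3278 TPM in F. ramosissima, so it was listed at 0 in the C3 species alone. The next had 3172, 2631 and 3023 TPM in F. trinervia and was listed at 0 in F. ramosissima as well. Of the 1171 genes, 847 reached a mean of 1 TPM under high light in F. ramosissima and 134 were listed at 0 there.

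Conversely, 1405 genes (8.74%) were listed at 0 in F. trinervia, with a median of 7.03 TPM in F. robusta, where 553 reached 10 TPM, 72 reached 100 TPM and 4 reached 1000 TPM. The most abundant of them was listed at 0 in all libraries of F. trinervia and had 2023, 3250 and 1986 TPM in F. robusta. Its levels in F. ramosissima were 359.5, 216 and 6.27 TPM. Of the 1405 genes, 865 had at least 1 TPM in F. ramosissima and 215 were listed at 0 there. These listings were the same at the other light level, in libraries the limit did not use: 98.9% of the genes listed at 0 in F. robusta under high light were also at 0 in its 3 control-light libraries, and 98.9% of those listed at 0 in F. trinervia were at 0 in its own. TPM keeps no read depth, so a listing at 0 is not a proof of absence, and no fold is given for these genes.

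The row numbers of the table carried a pattern that touches these genes. Of the 14940 genes numbered above 19000, 0.087% were at 0 in all 6 libraries of F. ramosissima, against 46.7% in F. trinervia and 47.4% in F. robusta. Of the 15100 genes numbered up to 19000, the shares were 25.1% in F. ramosissima, 26.1% in F. trinervia and 24.2% in F. robusta. Of the genes listed at 0 under high light in F. robusta, 739 (63.1%) were numbered above 19000, and of those listed at 0 in F. trinervia, 809 (57.6%) were, beside 44.6% of all 16071 genes. The part of this numbering in the listings at 0 was not tested. Of all genes tested, 60.1% of those numbered above 19000 and 54.2% of those up to 19000 were called. Among genes with at least 1 TPM in both species, the shares were 44.3% and 43.6%.

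Among called genes that were above 0 in all 6 libraries and whose groups did not overlap, 4 are named, by the largest log2 difference among genes of at least 100 TPM and the largest difference in TPM, in each direction. Gene00137 was the most abundant transcript of F. trinervia leaves under high light, with 43594, 43668 and 46017 TPM, against 335, 529 and 290.3 TPM in F. robusta. The libraries of F. trinervia were within a narrow range and far above all of F. robusta, in which the gene ranked 237. The difference was 6.90 on the log2 scale (SE 0.23, adjusted p = 1.43e-06 by limma), or 115-fold between the means, and the gene alone held 4.81 ± 0.145% of all TPM in F. trinervia and 0.042 ± 0.0132% in F. robusta (SD, n = 3). Under control light, the gene had 21493, 22125 and 27272 TPM in F. trinervia, against 312, 172 and 380.4 TPM in F. robusta. In the high-light libraries of F. ramosissima it had 2299, 3194 and 3237 TPM, between the other species.

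Gene23772 had the largest log2 difference of the higher genes under this rule. Its transcript abundance was 5120, 4878 and 4969 TPM in F. trinervia, against 9.78, 5.92 and 5.13 TPM in F. robusta. The groups were separated by more than 2 orders of magnitude, with a log2 difference of 9.34 (SE 0.24, adjusted p = 8.71e-07 by limma), a ratio of means of 719 and ranks of 23 in F. trinervia and 8791 in F. robusta. Under control light the difference was 8.96 on the log2 scale. The F. ramosissima libraries were far apart from each other, at 70.4, 2179 and 453 TPM.

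Gene04349 was the second most abundant transcript of F. robusta and only the 112th of F. trinervia. It had 892, 1328 and 1037 TPM in F. trinervia, against 27214, 35055 and 31647 TPM in F. robusta. The groups did not overlap, with a log2 difference of −4.86 (SE 0.18, adjusted p = 2.07e-06 by limma), and the mean of F. robusta was 28.8 times that of F. trinervia. Under control light the log2 difference was −5.49, and F. ramosissima had 7741, 7519 and 11561 TPM under high light, between the other species.

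Gene09036 had the largest log2 difference of the lower genes under this rule, and the widest spread of the 4 named genes. It had 2.27, 2.27 and 2.79 TPM in F. trinervia, against 11343, 570.1 and 8403 TPM in F. robusta, where the low value was that of replicate 2. The log2 difference was −10.11 (SE 1.06, adjusted p = 0.000177 by limma, with 4.76e-07 to 0.00404 over the alternatives), and −11.47 without replicate 2 of F. robusta. Under control light the difference was −6.73 (adjusted p = 0.0039 by limma), with 166 to 3937 TPM in F. robusta. In F. ramosissima the gene had at most 1.16 TPM under high light, so here the intermediate species was as low as the C4 species. The calls of these 4 genes held in every alternative that tested them, and the fit limited to genes numbered up to 19000 left out Gene23772.

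**Figure D2:**
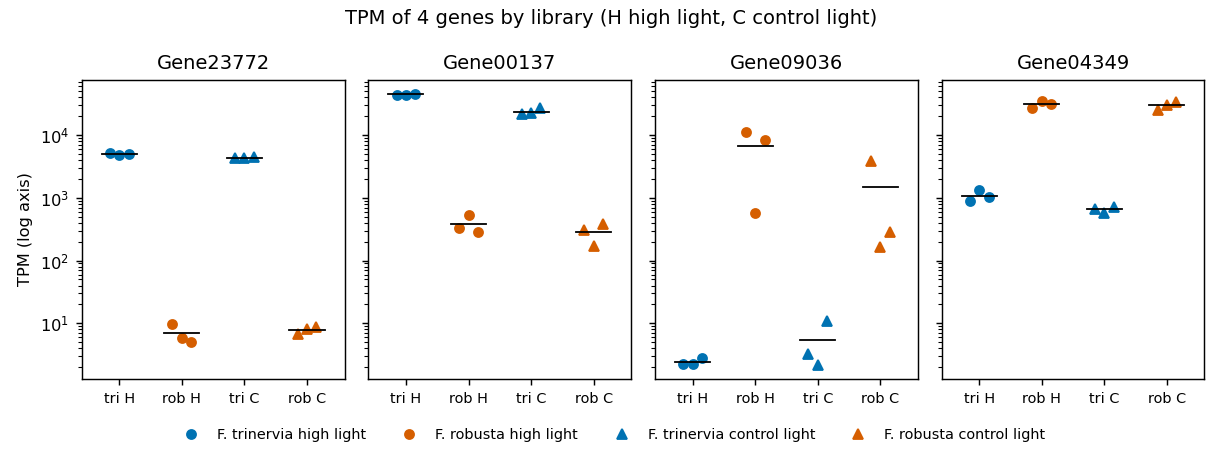
TPM (log axis) of the 4 named genes in each library of F. trinervia (tri) and F. robusta (rob) under high light (H, circles) and control light (C, triangles), with lines at the group means. Gene23772 and Gene00137 are higher in all libraries of F. trinervia and Gene09036 and Gene04349 are lower in all of them, and Gene09036 varies from 570.1 to 11343 TPM among the high-light libraries of F. robusta.

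The other genes at the top of the leaf transcriptomes fell into genes that stood high in both species and genes that stood high in 1. Together, the 10 most abundant genes of both species were 15 genes, of which 4 were higher in F. trinervia, 6 were lower and 5 were not called. The 10 of F. trinervia held 21.0 ± 0.0632% of TPM in F. trinervia, against 15.9 ± 3.59% in F. robusta, while the 10 of F. robusta held 12.05 ± 0.318% in F. trinervia and 24.5 ± 5.39% in F. robusta (SD, n = 3). The 5 genes that were not called ranked 2, 4, 8, 9 and 13 in F. trinervia and 3, 5, 11, 9 and 10 in F. robusta. The first of them had 24929, 28610 and 26283 TPM in F. trinervia, against 21281, 47540 and 24206 TPM in F. robusta. All 5 had their highest F. robusta value in replicate 2, the library that stood apart. In the 9 fits, the gene ranked 8 in F. trinervia was called higher in 2, quantile normalization among them, the gene ranked 9 was called higher in 1, and the other 3 in none.

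The gene ranked 6 in F. trinervia had 17560, 13831 and 17571 TPM there, against 191, 181 and 209 TPM in F. robusta, where it ranked 517. Its log2 difference of 6.38 (SE 0.15) was close to that of Gene00137, and F. ramosissima again lay between the other species, at 414, 529 and 702 TPM. The gene ranked 7 had 13823, 12388 and 12647 TPM in F. trinervia and 1856, 2933 and 1956 TPM in F. robusta, a log2 difference of 2.56 (SE 0.19). The gene ranked 10 had 12501, 10828 and 11472 TPM in F. trinervia, against 5209, 5788.5 and 5068 TPM in F. robusta, a log2 difference of 1.11 (SE 0.11). These 3 genes were called higher in all 9 fits.

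On the other side, the gene ranked 8 in F. robusta was almost undetected in F. trinervia, with 0.62, 0 and 0.63 TPM, against 13043, 23862 and 15024 TPM in F. robusta, a log2 difference of −13.56 (SE 0.31). Unlike Gene09036, it was abundant in F. ramosissima, at 6180.4, 6549 and 13284 TPM. The gene ranked 7 in F. robusta had 82.1, 100.4 and 126 TPM in F. trinervia, against 11508, 30763 and 12653 TPM in F. robusta, a log2 difference of −7.33 (SE 0.39). The gene ranked 6 in F. robusta had 3477, 3219 and 3089 TPM in F. trinervia, against 19270.5, 20735 and 18828 TPM in F. robusta, a log2 difference of −2.59 (SE 0.11). These 3 genes were called lower in all 9 fits. The genes that ranked 3 and 5 in F. trinervia, which were those ranked 1 and 4 in F. robusta, were lower in F. trinervia by 0.75 and 0.70 on the log2 scale (SE 0.10 each), and neither call held after median-ratio scaling or quantile normalization.

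**Figure D3:**
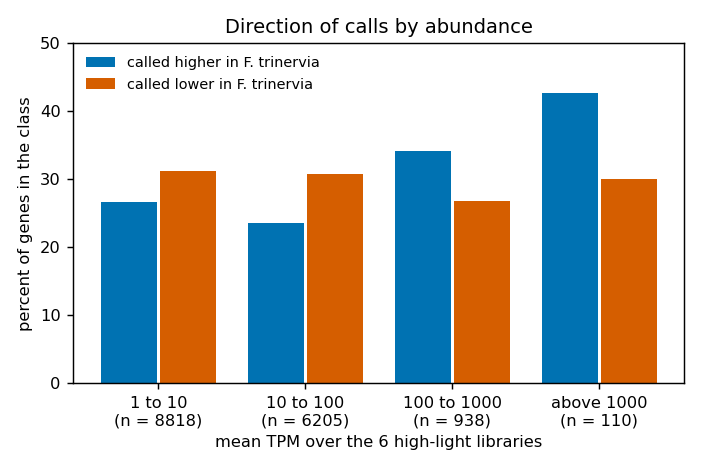
Percent of genes called higher (left bars) and lower (right bars) in F. trinervia under high light, by the mean TPM of the gene over the 6 high-light libraries. Lower calls are more frequent than higher ones in the classes of 1 to 10 and 10 to 100 TPM on the deposited TPM, a direction that turns after quantile normalization, and higher calls are more frequent in both classes above 100 TPM on the deposited TPM, after both scalings, in the joint model and without any single library.

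On the deposited TPM, higher calls were more frequent among genes above 100 TPM than among scarcer genes, a contrast that quantile normalization removed for the class of 100 to 1000 TPM. Of 110 genes with a mean above 1000 TPM, 47 (42.7%) were higher and 33 (30%) were lower in F. trinervia, with a median log2 difference of 0.45. Of 938 genes of 100 to 1000 TPM, 320 (34.1%) were higher and 251 (26.8%) were lower, with a median of 0.30. Of 6205 genes of 10 to 100 TPM, 1465 (23.6%) were higher and 1910 (30.8%) were lower, and of 8818 genes of 1 to 10 TPM, 2350 (26.7%) were higher and 2756 (31.3%) were lower, with a median of −0.14 in both classes. Higher genes made up 58.8% of calls above 1000 TPM and 56.0% at 100 to 1000 TPM, and stayed above 50% in both classes after both scalings, in a joint model of the 18 libraries and in every fit that left out 1 library. In the classes below 100 TPM they made up 43.4% and 46.0%, and these shares turned to 53.1% and 55.9% after quantile normalization, beside 52.6% at 100 to 1000 TPM and 58.7% above 1000 TPM. In the class of 1 to 10 TPM the share also reached 50.4% without replicate 1 of F. robusta.

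Among the 100 most abundant genes of F. trinervia, 66 were higher and 7 were lower in this species, and among the 100 of F. robusta, 18 were higher and 51 were lower in F. trinervia. Choosing genes by their level in 1 species favours that species, so these counts describe the lists and test nothing. Without replicate 2 of F. robusta, 32 of the 100 most abundant genes of F. robusta were higher and 53 were lower in F. trinervia. Genes called higher held 51.2 ± 1.02% of TPM in F. trinervia, against 12.5 ± 0.688% in F. robusta, while those called lower held 11.5 ± 0.215% in F. trinervia and 50.7 ± 1.93% in F. robusta (SD, n = 3). The calls came from the same libraries, so they fixed the direction of these contrasts, which test nothing. The genes that were not called held 37.1 ± 1.02% in F. trinervia and 36.5 ± 1.31% in F. robusta. The 10 genes with the largest gain in mean share, F. trinervia minus F. robusta, together gained 12.96 percentage points of TPM. The 10 with the largest loss together lost 14.6 percentage points.

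The control-light libraries, which played no part in choosing these genes or in the high-light test, showed whether the species differences were also present at 500 µmol m−2 s−1. There, limma called 9602 of the same 16071 genes (59.7%), 5193 higher (32.3%) and 4409 lower (27.4%) in F. trinervia. Of the genes higher under high light, 80.4% were also called higher under control light and 24 were called lower. Of the genes lower under high light, 71.0% were also called lower and 63 were called higher. Without replicate 2 of F. robusta under high light, more genes were called lower and 56.1% of them were called lower under control light. These shares include genes that met the limit through 1 species alone. Among genes with at least 1 TPM in both species, 71.6% of the higher and 59.6% of the lower ones were called in the same direction under control light. Of such genes with at least a 4-fold difference under high light, 91.6% of 479 higher and 75.2% of 735 lower ones were, and of those with at least an 8-fold difference, 95.8% of 166 and 81.3% of 305. The sign was the same at both light levels for 95.1% of all genes called higher and 92.8% of all genes called lower. These shares too include genes that met the limit through 1 species alone. Across genes, the differences at both light levels had r = 0.92 (rho = 0.86), and r = 0.80 among genes with at least 1 TPM in both species. The same species, and possibly the same reference, underlie both light levels.

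**Figure D4:**
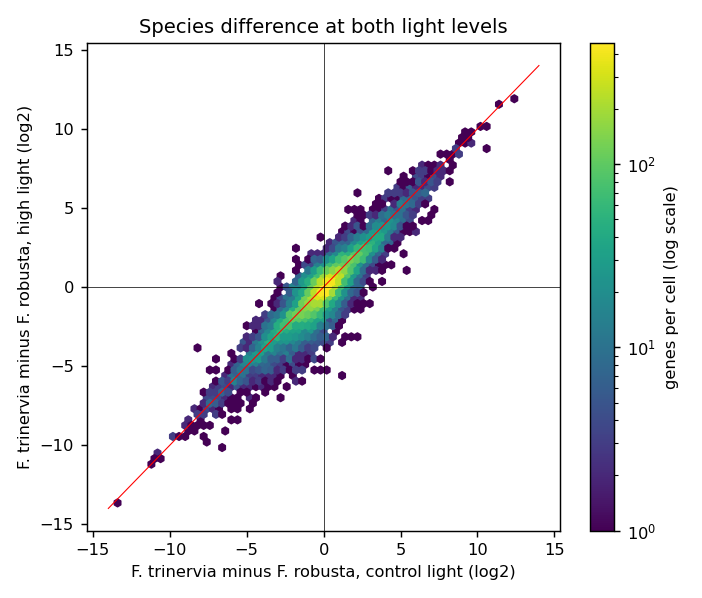
Log2 difference, F. trinervia minus F. robusta, under high light (vertical axis) against control light (horizontal axis) for 16071 genes, with the colour giving the number of genes per cell on a log scale and the line marking equal differences. The cloud follows the line, with r = 0.92 across genes.

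A difference between the light levels was found for few of these genes. In 1 model of 12 libraries, the species difference under high light differed from that under control light for 932 genes (5.8%), being more positive for 230 (1.43%) and more negative for 702 (4.37%). This split changed with scaling, to 915 more positive and 961 more negative after median-ratio scaling and to 954 and 747 after quantile normalization. The count also rested on single libraries. It was 4240 without replicate 2 of F. robusta under high light, 619 and 376 without its replicates 1 and 3, 372, 338 and 350 without replicates 1, 2 and 3 of F. trinervia under high light, and 217 and 182 without replicates 1 and 2 of F. trinervia under control light. Of the 820 genes called higher under high light but not under control light, 91 were among the 932, and of the 1435 called lower under high light only, 309 were. For the others, a difference between light levels was not found by this test, and the absence of a call under control light does not show one. The species differed in opposite directions at the 2 light levels in 87 genes, of which 86 were among the 932. Of the genes described by rank above, the one ranked 10 in F. trinervia was among the 932 (adjusted p = 0.0328 by limma), with log2 differences of 1.11 under high light and 0.50 under control light.

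The intermediate species F. ramosissima shows where another leaf transcriptome lay for genes that differed most. A level equal to that of either species was counted as between, and F. ramosissima could not fall below a species listed at 0. The share between is therefore partly set by genes listed at 0 in 1 species. Of 1635 genes at least 4-fold higher in F. trinervia, F. ramosissima lay between the other species under high light for 71.9%, nearer F. trinervia for 37.6% and nearer F. robusta for 34.4%. This order turned with the row number: among genes numbered above 19000, which were almost never at 0 in F. ramosissima, it was nearer F. trinervia for 44.8% and nearer F. robusta for 29.6%, and among those up to 19000 for 28.5% and 40.3%. For 16.1% of the 1635 genes it exceeded F. trinervia and for 11.99% it was below F. robusta. Of 2355 genes at least 4-fold lower in F. trinervia, it lay between for 70.0%, nearer F. trinervia for 41.7% and nearer F. robusta for 28.3%. Here too the order turned, with 34.0% nearer F. trinervia and 37.3% nearer F. robusta among genes numbered above 19000, and 49.7% and 18.9% among those up to 19000. The part of the numbering in these positions was not tested. Among genes with 1 TPM in the higher species only, F. ramosissima lay between for 76.9% of 1156 higher and 78.3% of 1620 lower genes. Among genes with at least 1 TPM in both F. trinervia and F. robusta the pattern was different. There it lay between for 59.9% of the higher and 51.7% of the lower genes. Of 479 such genes that were higher in F. trinervia, F. ramosissima was nearer F. trinervia for 23.8%, nearer F. robusta for 36.1% and below F. robusta for 31.9%. Of 735 that were lower in F. trinervia, it was below F. trinervia for 40%, nearer F. trinervia for 33.9% and nearer F. robusta for 17.8%. These shares are descriptions over genes, and no test was made of them.

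**Figure D5:**
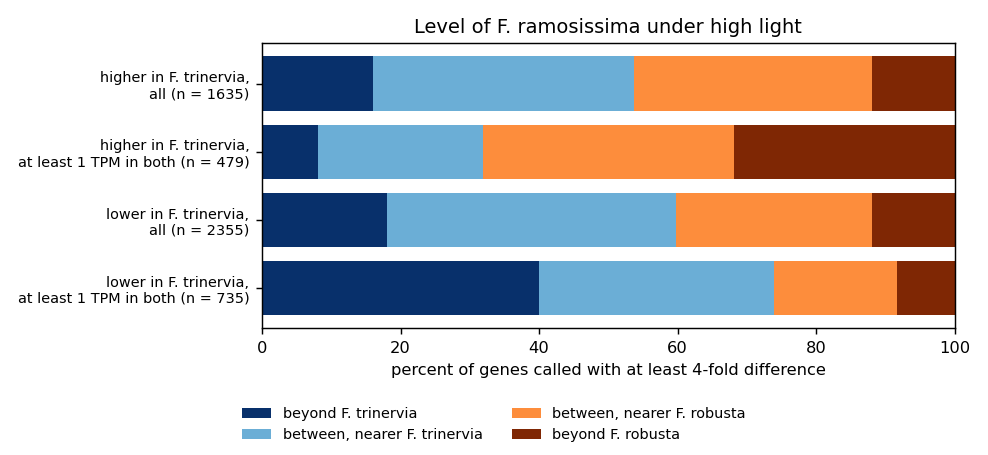
Position of the mean of F. ramosissima under high light, on log2(TPM + 1), for genes called with at least a 4-fold difference between F. trinervia and F. robusta, as the percent of genes beyond F. trinervia, between the species and nearer either, or beyond F. robusta. It lies between them for 71.9% of the higher and 70.0% of the lower genes, and below F. trinervia for 40% of the lower genes with at least 1 TPM in both species. A level equal to that of either species is counted as between.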

How the data were processed

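The authors deposited 1 table of TPM values for the 18 libraries, which came from paired-end reads of 150 bp. The submitters' processing notes name RSEM and edgeR, without versions, and no reference or build is given in the sources used here. TPM is relative to the library total and keeps no depth. Library depth is therefore unknown, and no counting intervals were given. The 6 high-light libraries summed to 903641 to 929124 TPM over the rows of the table. Column letters H and L were read as high and control light. Of 30041 rows, 1 ran on into the next and was left out.

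Values were taken as log2(TPM + 1). Genes averaging 1 TPM or more across the 6 libraries entered the test in limma 3.58.1 in R 4.3.3 (abundance trend, two-sided, 4 residual degrees of freedom), with Benjamini-Hochberg adjustment over all genes tested and a threshold of 0.05. The same genes were tested in the control-light libraries and, for the difference between light levels, in 1 model of 4 groups. Library values were compared by exact permutation. The model was tested on simulated data.

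Named genes were, in each direction and among called genes above 0 in all 6 libraries whose groups did not overlap, the gene with the largest log2 difference at 100 TPM or more in the higher species, and the gene with the largest difference in mean TPM. The comparison and this rule were chosen with earlier results of these data known. Alternatives were another pseudocount, other limits on low values, 2 scalings, the replicate number as a block, a model of all libraries, species weights, genes numbered up to 19000, and leaving out each library.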

Additional observations from a re-analysis of the deposited data

Results flagged for a closer look

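The species difference was not the same at both light levels for 932 of the 16071 genes, by limma's interaction of species and light in 1 model of 12 libraries. It was more positive under high light for 230 of them and more negative for 702, and 280 of the 932 were called higher in F. trinervia under high light, 469 were called lower and 183 were not called.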

How the results depend on the processing

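The number of genes called under high light was 7291 to 11308 when 1 library was left out, with 3379 to 4367 higher and 3892 to 6941 lower in F. trinervia. With a limit of 5 TPM it was 5678 (2524 higher, 3154 lower), with at least 1 TPM in both species 4789 (2273 higher, 2516 lower), and for genes numbered up to 19000 it was 4764 (2181 higher, 2583 lower), fits that tested fewer genes. The median log2 difference turned to 0.11 after quantile normalization (exact permutation p = 0.1) and was −0.30 to 0.034 when 1 library was left out. The difference between light levels was called for 1876 genes after median-ratio scaling, 1701 after quantile normalization and 182 to 4240 when 1 library was left out, and the cause was not tested. Of the library values, the difference in the TPM share of genes of 1 to 10 TPM was −0.000578 percentage points, and turned to 0.0579 among genes with at least 1 TPM in both species and ranged from −0.0340 to 0.0325 when 1 library was left out. That of genes of 100 to 1000 TPM was −0.35 and ranged from −2.91 to 1.01 when 1 library was left out. The difference in the number of genes at 1 TPM or more was −652, and turned to 98 among genes with at least 1 TPM in both species. The 4 named genes kept their calls in all alternatives that tested them.

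Whether replicate numbers paired the samples was not settled. The deviations of same-numbered libraries from their group means correlated at 0.15, 0.13 and 0.06 across genes. Those of differently numbered libraries correlated at −0.16 to 0.10. With the replicate number as a block, limma called 9012 genes under high light (4035 higher, 4977 lower), 9075 under control light and 662 in the difference between light levels.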
